A study of Homo sapiens with 18 samples.

Results

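ZR-75-1 is an established luminal breast cancer cell line that carries the estrogen receptor. RNA was sequenced from a knockdown line and a control line of these cells. The knockdown is of ADAR, which edits double-stranded RNA by deaminating adenosine to inosine. The libraries were made with a stranded total RNA kit, so RNA without a poly(A) tail is included. The cells were given 100 nM triptolide, an inhibitor of RNA polymerase II transcription, or DMSO, the vehicle, or were left untreated, for 16 h. Each of these 6 groups had 3 libraries, named as biological replicates 1 to 3. All cells, the untreated ones included, were grown in medium with 10% fetal bovine serum and kept in 1% serum during the 16 h. The labels do not say how the knockdown was made or whether each line is 1 clone.

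Described here is replicate 3, as it stood apart from the other 2 in cells given no triptolide. It comprises 4 of the 18 libraries: replicate 3 of untreated knockdown, DMSO knockdown, untreated control and DMSO control cells. They were set against the 8 libraries of replicates 1 and 2 of the same 4 groups, with the group as a block. The split was chosen with the levels of interferon-induced genes in these 12 libraries known, so differences between them are a description and carry no p-value. The 2 replicate 3 libraries under triptolide lay outside that choice, and tests were run there against the 4 triptolide libraries of replicates 1 and 2. Each replicate number may stand for a separate round of culture, but the labels give no dates. Replicate 3 is thus 1 number against 2, and if a number marks a round, its 4 libraries share that round. Culture, RNA extraction and library preparation cannot be told apart as its source.

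Interferons are secreted proteins that cells make when they sense foreign or misplaced nucleic acid. Type I and type III interferons bind receptors that signal through the kinases JAK1 and TYK2 to a transcription factor complex that includes STAT2 and IRF9 and binds a short DNA element in front of interferon-induced genes. These genes encode antiviral effectors, the RNA sensors that start the response and the signalling proteins themselves, so the pathway feeds on itself. In breast cancer lines a background level of this programme is known to differ between lines, and ADAR is known to keep the cell's own double-stranded RNA from the sensors.

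The interferon programme was at a low level in replicate 3 of both lines, with and without DMSO. In bulk RNA, fewer cells with an active programme and less RNA per cell cannot be told apart. Of 19680 genes tested, 489 (2.48%) were called lower in replicate 3 and 429 (2.18%) were called higher. A gene is called where its Benjamini-Hochberg adjusted p in the quasi-likelihood fit of edgeR is under 0.05, which is used here to list genes and not as evidence, since the split was chosen on these values. The lower genes differed more: their median size was 1.13 on the log2 scale, against 0.56 for the higher genes, and 76 lower and 5 higher genes differed by over 4-fold. Of those 76, 41 were on the interferon, antigen presentation and chemokine lists, and none of the 429 genes called higher were. Of the 19680 genes tested, the interferon lists held 80, MHC class I presentation 16, interferon gamma type genes 11 and chemokines 4. The lists were chosen with earlier results of these data known. In all 4 groups the replicate 3 library lay beyond both other libraries for 481 of the lower and 423 of the higher genes. The calls were made on these same libraries, so most of this pattern follows from the calling. Its share over all genes is not given here. The number of calls rested on each library: it was 122 to 189 when any of the 4 replicate 3 libraries was left out, 435 to 574 without knockdown DMSO replicate 2, knockdown untreated replicate 2, control DMSO replicate 2 or control DMSO replicate 1, and 5376 when replicates 1 and 2 were fitted as separate levels (a replicate block).

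The 3 defining genes of the split showed the size of the gap. IFI44L, an interferon-induced protein with antiviral activity (chr1:79085587-79111830, plus strand, GRCh37), had 0.423 and 0.696 CPM (read counts scaled to 1000000 per library) in the untreated and DMSO knockdown libraries of replicate 3 and 0.0979 and 0 CPM in its control libraries. In replicates 1 and 2 it ranged from 50.5 to 145 CPM in the knockdown line and from 3.91 to 31.9 CPM in the control line. The 4 libraries of replicate 3 held 36 IFI44L reads together, against 14307 in the 8 others, and the log2 difference was -7.68 ± 0.89 (SE). No replicate 3 library reached the lowest of the others.

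ISG15, a ubiquitin-like protein that is attached to other proteins during an interferon response (chr1:936518-949920, plus strand, GRCh37), had 1.48 and 1.99 CPM in the knockdown libraries of replicate 3 and 0.196 and 0.376 CPM in its control libraries. The 8 others ran from 15.8 through a median of 28.2 to 56.4 CPM (log2 difference -5.26 ± 0.65). IFI6, a small membrane protein known to restrain cell death and virus replication (chr1:27992575-27998723, minus strand, GRCh37), had 27.7 and 34.4 CPM in the knockdown libraries and 9.17 and 10.2 CPM in the control libraries of replicate 3. The 8 others ran from 254 through 319 to 368 CPM (log2 difference -4.08 ± 0.36). For both genes the 4 replicate 3 libraries lay together far below the rest, with the control libraries lowest.

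**Figure D1:**
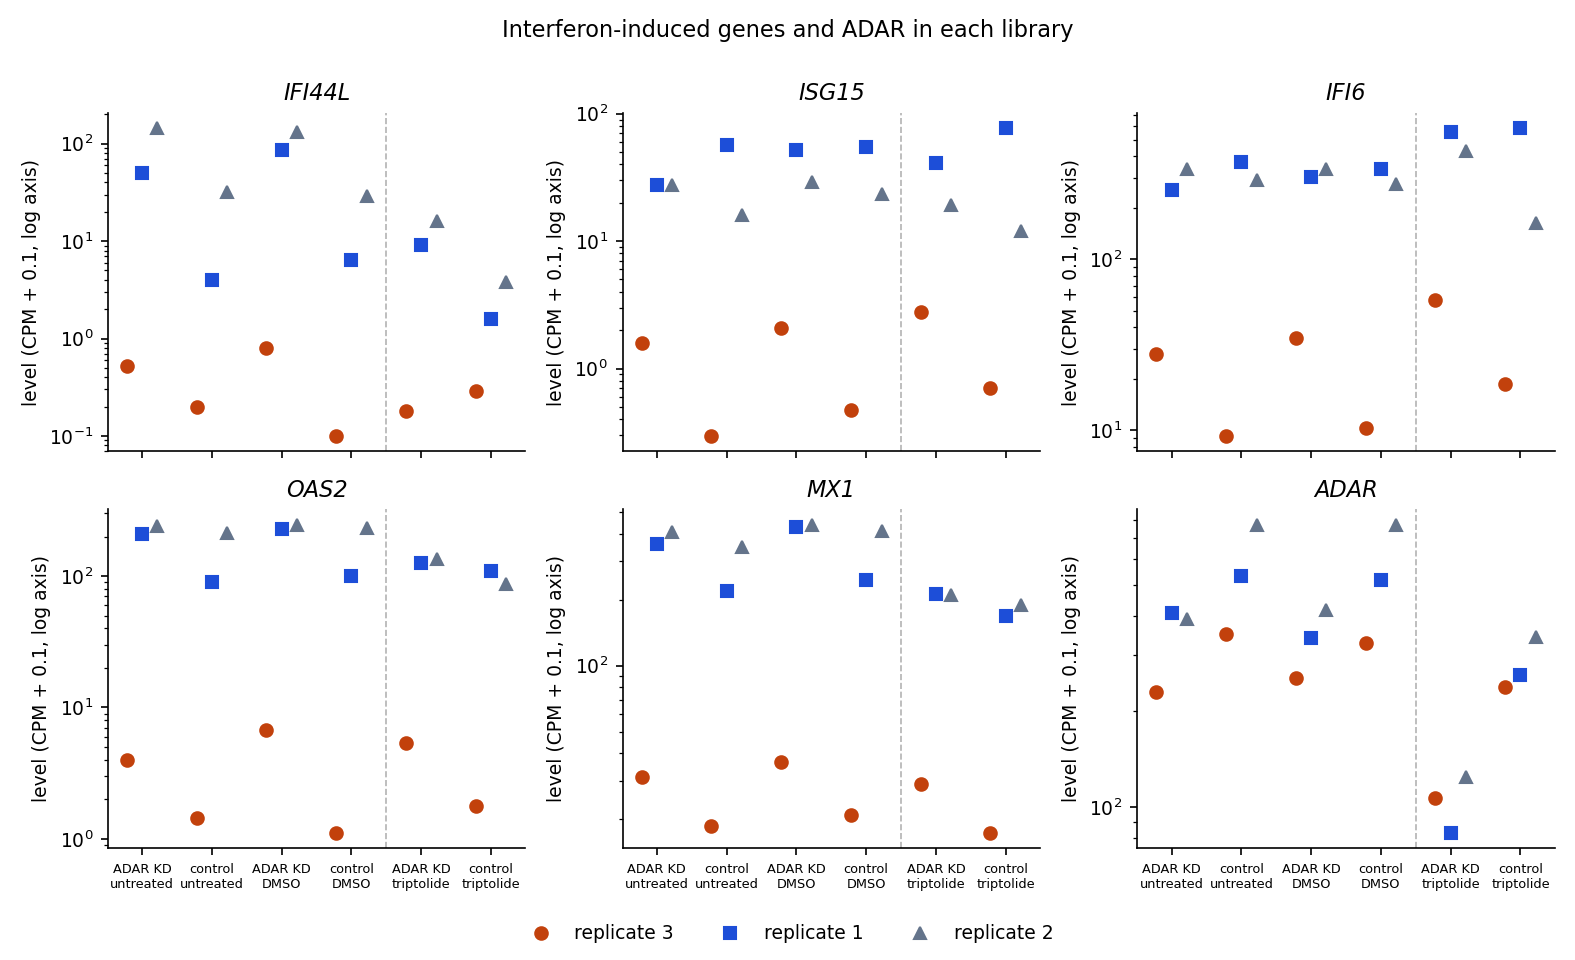
Level of 6 genes in each of the 18 libraries (CPM plus 0.1, log axis), by line and treatment, with replicate 3 as circles, replicate 1 as squares and replicate 2 as triangles. The dashed line sets off the triptolide libraries, which were scaled apart from the others, so levels are not to be compared across it. Replicate 3 lies below replicates 1 and 2 in all 6 groups for IFI44L, ISG15, IFI6, OAS2 and MX1; for ADAR it lies below both in 5 of the 6 groups.

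The stretch before the start of these 3 genes carries the core of the interferon-stimulated response element, the site bound by the complex that includes STAT2 and IRF9. The 250 bases upstream of each RefSeq start are shown because the genes set the split, 5′ to 3′ on the gene's strand, from GRCh38.p14: IFI44L at chr1:78620198-78620447 (plus), ISG15 at chr1:1013247-1013496 (plus) and IFI6 at chr1:27672193-27672442 (minus). Capitals mark matches to GAAANNGAA or, on the other strand, TTCNNTTTC; the 3 matches of ISG15 overlap one another.
IFI44L: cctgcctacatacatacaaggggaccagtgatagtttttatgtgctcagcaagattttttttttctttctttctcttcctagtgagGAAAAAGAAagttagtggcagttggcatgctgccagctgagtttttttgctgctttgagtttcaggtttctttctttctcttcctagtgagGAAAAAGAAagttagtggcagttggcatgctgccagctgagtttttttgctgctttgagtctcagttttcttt
ISG15: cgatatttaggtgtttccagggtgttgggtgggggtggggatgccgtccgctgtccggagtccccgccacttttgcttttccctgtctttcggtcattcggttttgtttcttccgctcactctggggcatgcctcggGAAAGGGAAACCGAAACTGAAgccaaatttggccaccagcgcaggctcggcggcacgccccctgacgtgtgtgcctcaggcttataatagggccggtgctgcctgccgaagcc
IFI6: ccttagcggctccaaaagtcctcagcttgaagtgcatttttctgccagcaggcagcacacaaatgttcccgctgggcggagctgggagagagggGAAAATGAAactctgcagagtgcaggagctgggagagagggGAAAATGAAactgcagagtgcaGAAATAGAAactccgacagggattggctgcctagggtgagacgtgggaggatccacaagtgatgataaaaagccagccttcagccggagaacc

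A match was present in the promoter windows (250 bases before and 50 after the start) of 28 of the 43 antiviral effector genes with a RefSeq entry (65.1%), against 8.29% of all 27305 windows and 6.46% of the 12317 windows of tested genes. Of the genes called lower, 62 of 332 with an entry held it (18.7%), but among those on none of the interferon or antigen lists the share was 25 of 275 (9.09%). Of the genes called higher, 19 of 328 held it (5.79%). A match says that these letters are present and not that a factor bound there.

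The ligands of the pathway were at the limit of detection. Of 10 interferon genes, IFNL2 was the 1 member that passed the low-count filter, and it was not called (log2 difference -2.78 ± 0.79). IFNL1, a type III interferon, had 5 reads in the 4 replicate 3 libraries and 87 in the 8 others, with levels of 0 to 0.106 CPM against 0.146 to 0.915 CPM. IFNL3 had 1 read against 81, and IFNB1, the type I interferon that many cell types can make, had 0 against 17. IFNL2 and IFNL3 are near-identical copies, so their reads may be split between them. These counts are too few for more than the statement that replicate 3 held fewer reads of them. IFNG had no read in any of the 12 libraries.

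The receptors were level. None of 6 receptor genes was called and their median log2 difference was -0.07, against -0.026 over all genes tested. IFNAR1, a chain of the type I receptor, had 22.3 to 31.8 CPM in replicate 3 and 23.6 to 41.0 CPM in the others (log2 difference -0.07 ± 0.14). IFNLR1, the specific chain of the type III receptor, had 7.33 to 10.1 CPM against 7.43 to 14.3 CPM (-0.22 ± 0.19).

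Part of the signalling genes were lower. Of 13 tested, 6 were called lower, among them STAT2, IRF1, IRF7, IRF9 and USP18, and none higher. IRF7, the factor that amplifies interferon production, had 0.914 to 1.80 CPM in replicate 3 and 9.06 to 15.8 CPM in the others, a log2 difference of -3.33 ± 0.20. IRF9 had 0.845 to 1.06 CPM against 3.22 to 6.70 CPM (-2.38 ± 0.25), and STAT2 had 49.4 to 58.1 CPM against 82.5 to 142 CPM (-1.09 ± 0.16). USP18, which removes ISG15 and damps the type I receptor, had 8.07 to 9.79 CPM against 20.3 to 33.3 CPM (-1.54 ± 0.15). The ranges of these genes did not overlap. JAK1, TYK2, STAT3, IRF2, IRF3, SOCS1 and SOCS3 were not called, at log2 differences between -0.32 and 0.18.

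Sensors of foreign RNA were lower as well. Of 8 sensor and adaptor genes tested of 11, 5 were called lower. RIGI, the helicase that detects viral RNA ends, had 7.37 to 12.1 CPM in replicate 3 and 34.1 to 108 CPM in the others (log2 difference -3.12 ± 0.35). IFIH1, the MDA5 sensor of long double-stranded RNA, had 14.6 to 19.5 CPM against 40.3 to 109 CPM (-2.16 ± 0.33), and EIF2AK2, the kinase PKR, had 64.3 to 98.5 CPM against 115 to 277 CPM (-1.34 ± 0.26). DHX58, a helicase that tunes both sensors, differed by -2.33 ± 0.14. MAVS, the mitochondrial adaptor that RIGI and MDA5 share, had 146 to 160 CPM in replicate 3 against 144 to 168 CPM (-0.04 ± 0.09) and lay inside the range of the others. STING1, the adaptor of the DNA sensor pathway, was called lower at a low level, 0.387 to 0.790 CPM against 1.56 to 2.84 CPM.

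The antiviral effectors were lower almost throughout. Of 52 effector genes in 4 lists, all 52 were tested and all had a negative log2 difference, with a median of -2.37. Of these, 46 were called lower and none higher, and for the same number the 4 replicate 3 libraries lay below all 8 others, against 725 of all 19680 genes (3.68%). Leaving out any of the 12 libraries kept the median between -2.45 and -2.27 and the effectors called between 35 and 47. Among the 6 not called were HERC5, ZC3HAV1, CMTR1, TRIM14 and PNPT1, at -0.88 to -0.02. Fits of 1 treatment or 1 line gave fewer calls at like sizes, with medians between -2.44 and -2.35. Of the 52, 5 were called in untreated cells alone, 19 in DMSO alone, 36 in the knockdown line alone and 2 in the control line alone. Each of these fits used the same number of libraries, and why their calls differed was not tested.

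By family, the OAS genes encode enzymes that sense double-stranded RNA and make a short RNA messenger. OAS2 had 3.88 and 6.70 CPM in the knockdown and 1.34 and 1.02 CPM in the control libraries of replicate 3, against 90.5 to 246 CPM in the others (log2 difference -6.14 ± 0.48). OAS1 had 5.32 to 13.7 CPM against 71.5 to 136 CPM (-3.77 ± 0.25), and OAS3 had 92.5 to 136 CPM against 377 to 643 CPM (-2.11 ± 0.14). For all 3 genes the replicate 3 libraries lay below every other library.

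All 7 IFIT and IFITM genes were called lower, with a median log2 difference of -3.36. IFIT1, which binds RNA that lacks the host's cap modification, had 9.48 and 11.6 CPM in the knockdown and 1.305 and 1.391 CPM in the control libraries of replicate 3, against 84.1 to 331 CPM in the others (-5.75 ± 0.63). IFITM3, which blocks virus entry from endosomes, had 0.602 to 1.62 CPM against 10.3 to 39.3 CPM (-4.69 ± 0.33). IFIT3 had 0.940 to 6.02 CPM against 24.7 to 121 CPM (-4.54 ± 0.45).

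Beside ISG15 itself, 3 of the 4 other genes of its conjugation list were called lower. UBA7, its activating enzyme, had 1.04 to 2.36 CPM in replicate 3 against 8.36 to 12.3 CPM (log2 difference -2.63 ± 0.18), UBE2L6, its conjugating enzyme, had 73.5 to 85.1 CPM against 196 to 274 CPM (-1.63 ± 0.13), and HERC6 had 19.3 to 26.5 CPM against 73.0 to 150 CPM (-2.34 ± 0.23). HERC5, the main ISG15 ligase in human cells, had a difference of -0.88 and was not called.

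Among the remaining effectors, MX1, a GTPase that traps viral nucleocapsids, had 18.6 to 36.3 CPM in replicate 3 against 220 to 438 CPM (log2 difference -3.77 ± 0.20). IFI27 had 1.504 to 2.994 CPM against 44.9 to 253 CPM (-5.73 ± 0.36), IFI44 had 0.705 to 1.72 CPM against 4.05 to 131 CPM (-5.21 ± 0.73), and RSAD2, the enzyme viperin, had 0.0653 to 0.669 CPM against 1.81 to 17.9 CPM (-4.36 ± 0.30). XAF1, an interferon-induced promoter of apoptosis, had 5 reads over the 4 replicate 3 libraries and 1300 over the 8 others. In each of these genes the groups did not overlap.

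Antigen presentation differed less. Of 16 MHC class I pathway genes, 11 were called lower, with a median log2 difference of -0.69. HLA-B had 148 to 202 CPM in replicate 3 against 270 to 516 CPM (-1.14 ± 0.23), HLA-F had 6.07 to 7.39 CPM against 13.4 to 29.6 CPM (-1.48 ± 0.20), and B2M, the shared light chain, had 242 to 313 CPM against 389 to 607 CPM (-0.73 ± 0.11). HLA genes share sequence, so how reads were divided among them is uncertain. Of 11 genes that interferon gamma mainly drives, 4 were called lower: CD74, GBP2, GBP3 and GBP4. CD74, the class II invariant chain, had 33.6 to 41.0 CPM against 53.1 to 99.0 CPM (-0.90 ± 0.17), while CIITA, the class II master regulator, and HLA-DRA were not called, at -0.49 and -0.15. The chemokine CCL5 was called lower, with 0.677 to 2.02 CPM against 4.78 to 10.4 CPM (-2.56 ± 0.34).

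**Figure D2:**
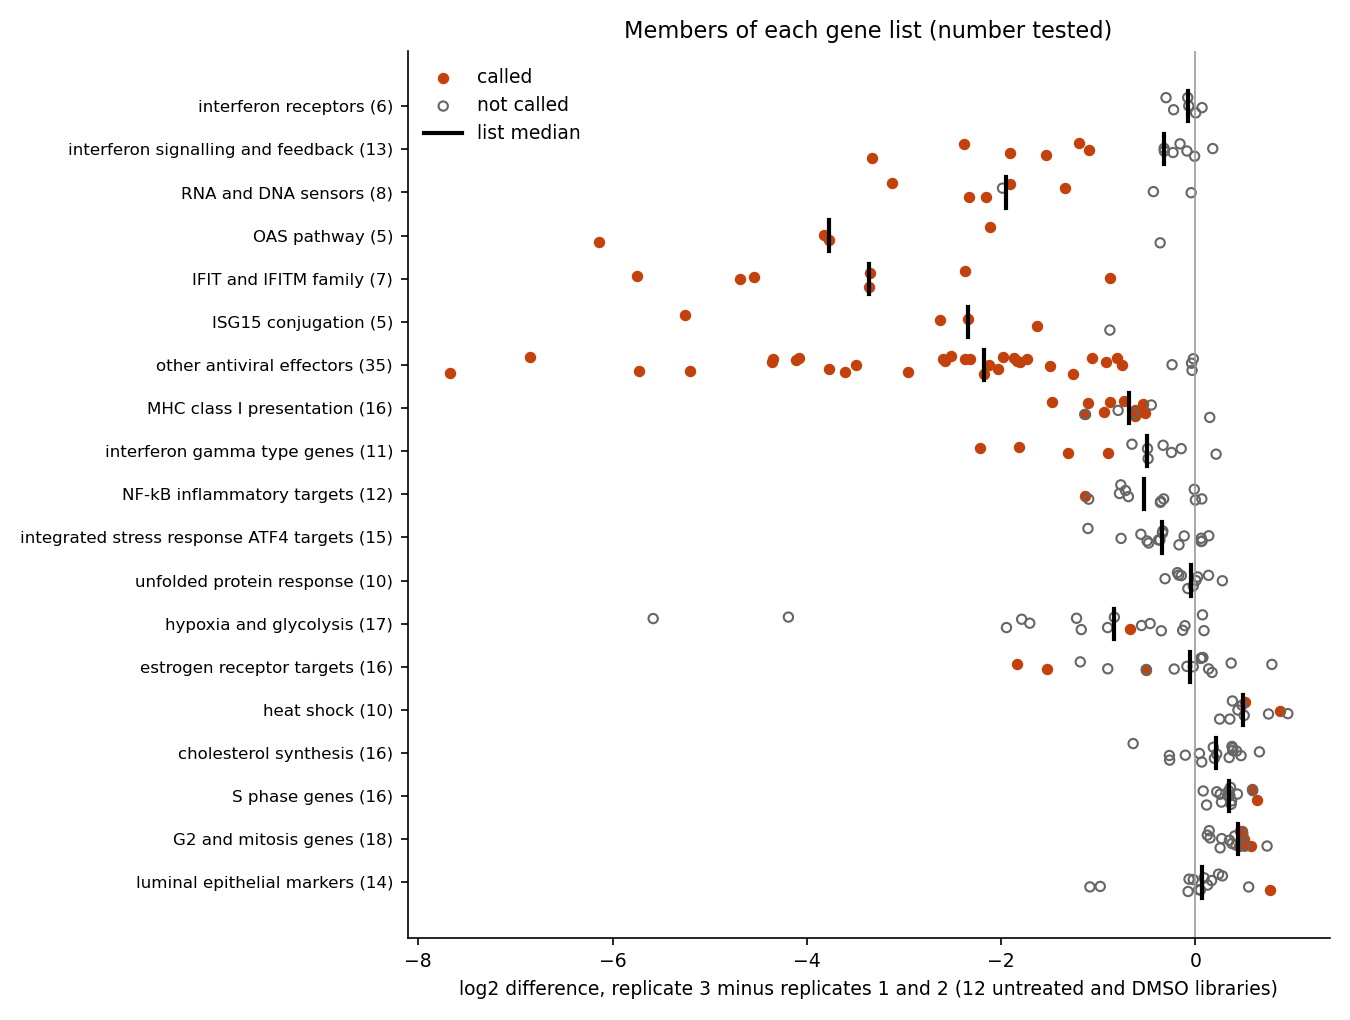
Log2 difference of replicate 3 minus replicates 1 and 2 in the 12 untreated and DMSO libraries for each tested member of 19 gene lists; filled points were called, open points were not, and the bar is the list median. The effector lists lie to the left with medians between -3.77 and -2.18, the receptors lie around 0, and the heat shock and mitosis lists lie slightly to the right.

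ADAR itself was among the genes called lower. Its level in replicate 3 was 230 and 254 CPM in the knockdown line and 350 and 327 CPM in the control line, untreated and DMSO in that order. In replicates 1 and 2 it was 339 to 416 CPM in the knockdown line and 515 to 771 CPM in the control line (log2 difference -0.81 ± 0.15). The call was lost without any one of the 4 replicate 3 libraries and in fits of 1 line or 1 treatment, at differences between -0.96 and -0.69. Within each line the ranges did not overlap, and in every replicate the knockdown library had less ADAR than its control library. One of the 2 ADAR proteins is known to be made from an interferon-inducible promoter. Counts per gene do not separate the 2.

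Replicate 3 also had genes at higher levels. LRP2, a large endocytic receptor, had 3.28 to 5.24 CPM in replicate 3 against 0.203 to 1.28 CPM (log2 difference 2.50 ± 0.36). PLK2, a kinase that stress and growth signals induce, had 389, 371, 232 and 230 CPM in knockdown untreated, knockdown DMSO, control untreated and control DMSO cells of replicate 3, against 63.9 to 141 CPM (1.64 ± 0.24). ODC1, the first enzyme of polyamine synthesis, had 95.9 to 110 CPM against 26.3 to 42.4 CPM (1.56 ± 0.14), with no overlap in either. EFNB2, an ephrin ligand, had 3.43 to 4.16 CPM against 0.284 to 1.76 CPM (1.97 ± 0.40). NRP2 and DCLK2 also lay above all 8 others, at log2 differences of 1.65 and 1.72.

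For 3 of the 10 largest higher genes the groups overlapped, and the knockdown libraries of replicate 3 held the highest levels. CYP1A1, a target of the aryl hydrocarbon receptor, had 43.7 and 12.5 CPM in the knockdown and 4.21 and 3.27 CPM in the control libraries of replicate 3, against 0.602 to 3.79 CPM in the others. SPRR3 had 20.5 and 17.0 CPM in the knockdown and 5.22 and 4.89 CPM in the control libraries, against 1.62 to 5.72 CPM. VTCN1, an immune checkpoint ligand, had 22.6 and 14.8 CPM and then 4.57 and 3.65 CPM, against 1.72 to 6.53 CPM.

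Chaperones and cell division genes were on the higher side. Of 10 heat shock genes, 2 were called higher and the median log2 difference was 0.49. Replicates 1 and 2 also differed in these genes, with a median of 0.47 for replicate 1 minus 2. HSPA8, the constitutive HSP70, had 5057 to 5713 CPM in replicate 3 against 2148 to 3685 CPM (0.87 ± 0.18), and HSPD1, a mitochondrial chaperonin, differed by 0.52 ± 0.11. Of 18 G2 and mitosis genes, all had a positive difference (median 0.43) and 6 were called higher: CCNB1, CCNB2, BUB1, BUB1B, KIF20A and TPX2. CCNB1, the cyclin that drives entry into mitosis, had 222 to 242 CPM against 125 to 178 CPM (0.57 ± 0.12). Their 4 replicate 3 libraries lay above all others for 5 of the 18, against 969 of all 19680 genes (4.92%). The 6 calls became 0 without any one of the 4 replicate 3 libraries or without knockdown untreated replicate 2, 2 without control DMSO replicate 1 or knockdown untreated replicate 1, 3 without knockdown DMSO replicate 1 or control DMSO replicate 2 and 14 with the replicate block, while the median stayed between 0.40 and 0.46 with any library left out. Of 16 S phase genes, GINS2 and CDC6 were called higher and the median was 0.35. KRT18, a luminal keratin, had 736 to 760 CPM against 324 to 542 CPM (0.77 ± 0.17).

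**Figure D3:**
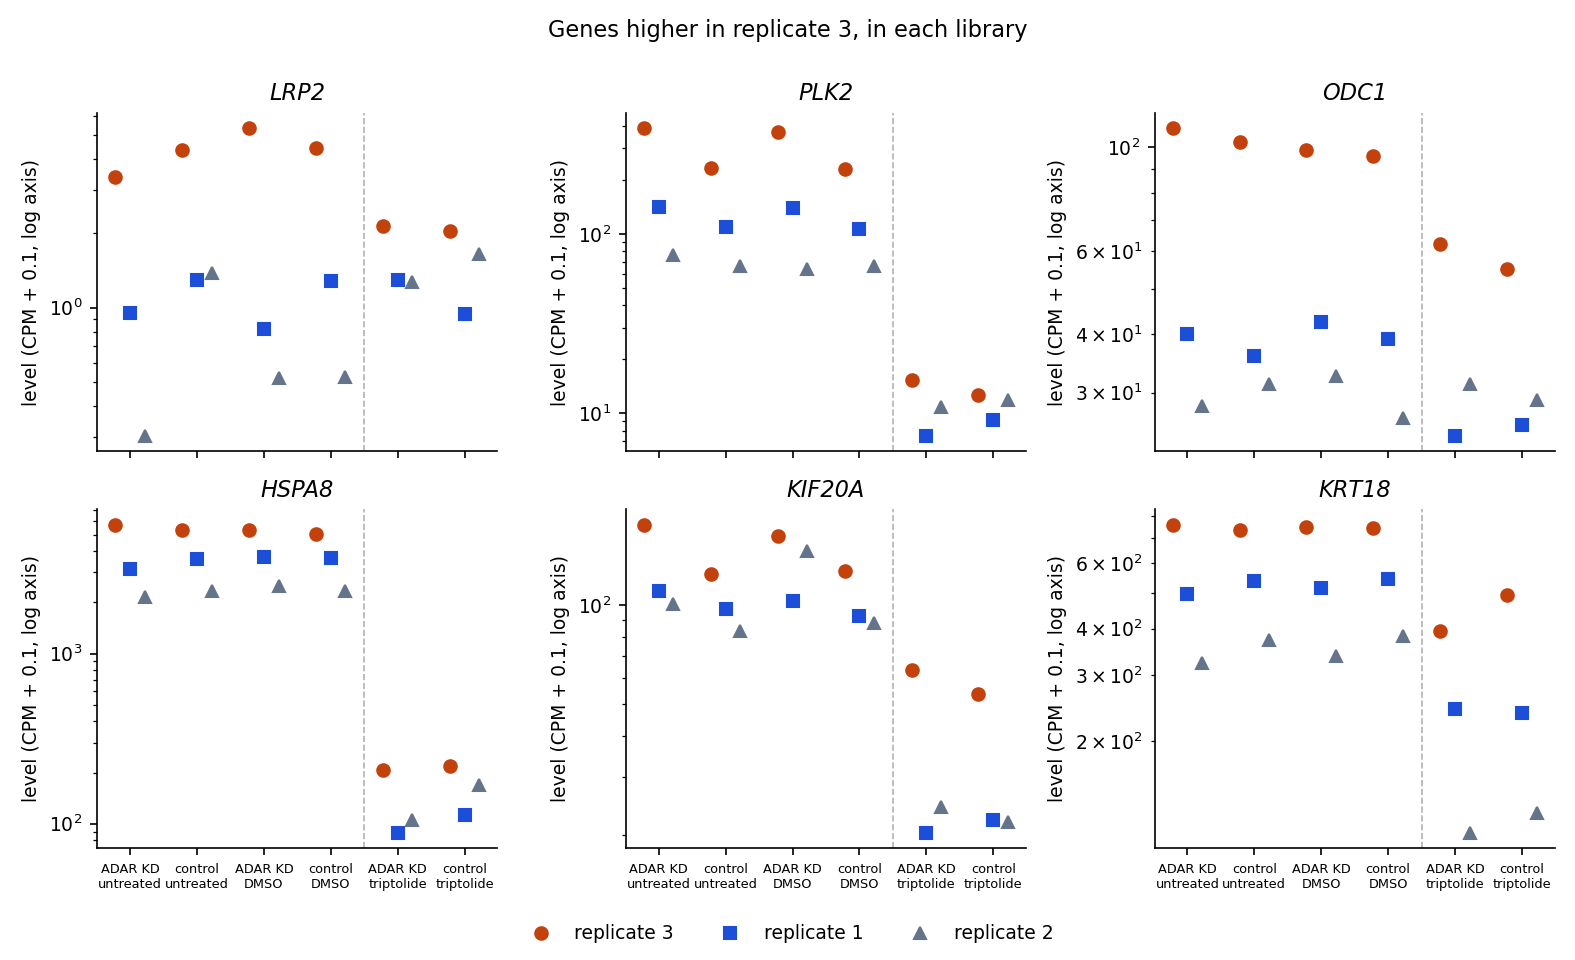
Level of 6 genes that were called higher in replicate 3, in each of the 18 libraries (CPM plus 0.1, log axis), with replicate 3 as circles, replicate 1 as squares and replicate 2 as triangles. The triptolide libraries were scaled apart from the others. In untreated and DMSO cells (left of the dashed line) the circles lie above both other symbols of their group for all 6 genes; KIF20A of control replicate 3 nevertheless lies below knockdown DMSO replicate 2.

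Other programmes set replicate 3 apart less than the antiviral effectors did, or not at all. None of 15 targets of the stress factor ATF4, 10 unfolded protein response genes or 16 cholesterol synthesis genes was called in either direction, with medians of -0.34, -0.05 and 0.21. Of 12 NF-kB target genes, 11 had a negative difference and the median was -0.53. TRAF1 alone was called lower, with 0.829 to 1.37 CPM in replicate 3 against 1.95 to 3.48 CPM. Of 16 estrogen receptor targets, 3 were called lower, TFF1, SERPINA1 and GREB1, and the median was -0.06. GREB1, a strong estrogen target, had 195 to 277 CPM in replicate 3 against 258 to 390 CPM (log2 difference -0.51 ± 0.12). Of 12 p53 targets, BBC3 was called lower (-1.43), and of 17 immediate early genes, FOS was (-1.68).

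The 3 replicate numbers were compared pair by pair to see which programmes were particular to a pair. Fitted as 3 levels, 6957 genes (35.4%) were called between replicates 3 and 1, 6893 (35%) between 3 and 2, and 9898 (50.3%) between 1 and 2. By number of genes, replicate 3 was therefore not the most distant of the 3. The effectors had a median log2 difference of -2.14 for replicate 3 minus 1 and -2.63 for 3 minus 2, with 48 of 52 called lower in each, and of -0.36 for replicate 1 minus 2, with 24 called lower and 9 higher. Between replicates 1 and 2 the effectors thus differed in both directions and by less in the median. For the mitosis list the medians were 0.45, 0.40 and -0.06 in the same order. For heat shock genes they were 0.34, 0.70 and 0.47, and for S phase genes 0.19, 0.51 and 0.25. In these 2 lists replicate 3 was highest and replicate 2 lowest in the median.

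Hypoxia and glycolysis genes differed in another way. Their median log2 difference was -0.19 for replicate 3 minus 1, -1.22 for 3 minus 2 and -0.90 for 1 minus 2, so replicate 2 was the high one. The 12-library median of -0.83 for replicate 3 came with 1 of 17 called lower, SLC2A1, the main glucose transporter, at 22.1 to 28.7 CPM in replicate 3 against 29.4 to 55.8 CPM. ATF4 targets (0.07, -0.55 and -0.79) also had replicate 2 high, and cholesterol genes (0.03, 0.58 and 0.57) had replicate 2 low. NF-kB targets (-0.74, -0.19 and 0.56) had replicate 1 high. These pairs share libraries, so their medians are given side by side and not compared further.

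**Figure D4:**
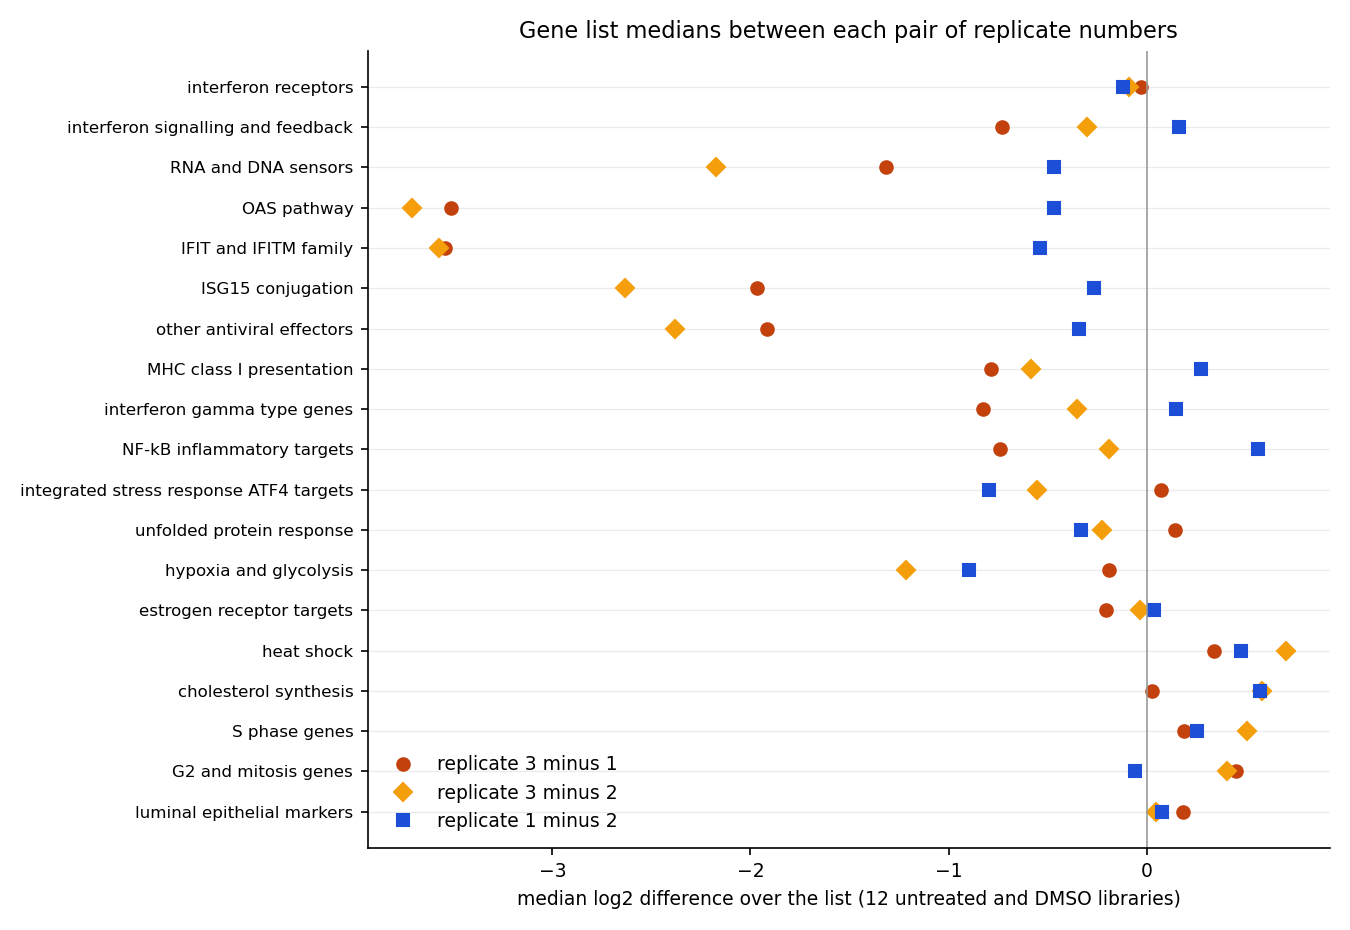
Median log2 difference of each gene list for replicate 3 minus 1 (circles), replicate 3 minus 2 (diamonds) and replicate 1 minus 2 (squares) in the 12 untreated and DMSO libraries. In the sensor and effector lists both replicate 3 pairs lie far left of the third pair; in the hypoxia and ATF4 lists the diamond and the square lie left of 0 and the circle is close to it.

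Whether the replicate 3 difference depended on the line or on DMSO was tested by interaction terms in edgeR. No gene was called for the line (0%, 381 at an unadjusted p under 0.05, 6 called by DESeq2 and 13 with the replicate block). None was called for DMSO (0%, 96 genes at an unadjusted p under 0.05, 0 called by DESeq2). Both counts at 0.05 are below what chance alone gives over 19680 genes. The difference between replicates 1 and 2 stayed in the error of these fits, so the lack of calls does not show equal gaps. For IFI6 the replicate 3 minus others log2 difference was 1.72 ± 0.26 higher in the knockdown than in the control line, that is, the gap was smaller in the knockdown line. IFI6 averaged 31.0 CPM in replicate 3 and 307 CPM in the others in the knockdown line, and 9.70 and 318 CPM in the control line. The same term was 2.78 ± 0.86 for ISG15 and 0.78 ± 2.10 for IFI44L. These genes defined the split in the same 12 libraries, so their terms are given with no p-value.

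Within replicate 3 most effectors had a higher level in the knockdown than in the control library. The knockdown library was the higher one for 38 of 52 effectors in untreated cells, 45 in DMSO and 39 in triptolide, with median knockdown over control ratios of 1.15, 1.37 and 1.25. In replicate 1 the counts were 42, 44 and 33, and in replicate 2 they were 34, 32 and 35. For 35 of the 52 the knockdown library was higher in both untreated and DMSO cells of replicate 3, against 42 in replicate 1 and 24 in replicate 2. Each replicate number had 1 library per line and treatment, so these counts carry no test. The share over all genes is not given here. Effectors with no reads in the control library, such as XAF1 in DMSO of replicate 3, were left out of the median ratio.

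Triptolide gave libraries outside the split. Of 18108 genes tested between the 2 replicate 3 and the 4 other triptolide libraries, 5 were called lower in replicate 3 (0.0276%) and none higher. Among the 18108, 2497 had an unadjusted p under 0.05 in edgeR. The 5 genes called were OAS2, IFIT1, DDX60, OAS1 and MX1, all effectors. OAS2 had 5.26 CPM in the knockdown and 1.69 CPM in the control library of replicate 3, against 125 and 136 CPM in the knockdown and 108 and 86.9 CPM in the control libraries of replicates 1 and 2 (log2 difference -5.16 ± 0.38, edgeR adjusted p = 0.0138). MX1 had 28.9 and 17.3 CPM against 212, 210, 169 and 188 CPM (-3.11 ± 0.22, edgeR adjusted p = 0.0138).

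The other 3 lay apart in the same way. OAS1 had 4.93 CPM in the knockdown and 4.43 CPM in the control library of replicate 3, against 35.9 to 45.6 CPM (-3.14 ± 0.24, edgeR adjusted p = 0.0138). IFIT1 had 1.83 and 0.675 CPM against 23.0 to 26.0 CPM (-4.33 ± 0.40, edgeR adjusted p = 0.0432), and DDX60, a helicase of the sensor pathway, had 3.91 and 2.21 CPM against 28.0 to 35.6 CPM (-3.34 ± 0.32, edgeR adjusted p = 0.0449). The 5 calls hung on single libraries: none was left without knockdown triptolide replicate 2 (lowest adjusted p of the 5 in edgeR 0.0652), without control triptolide replicate 3 (0.447) or without knockdown triptolide replicate 3 (0.172), and 14 genes were called without control triptolide replicate 2. With replicates 1 and 2 as separate levels (a replicate block), 4318 genes were called, among them the same 5, and DESeq2 called 434. These libraries bear the same replicate numbers as the others, and earlier results had shown libraries of 1 number varying together, so they are not an independent repeat.

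The upstream sequences of IFIT1 and DDX60 are shown because both genes were called in libraries that the split did not use, as 250 bases 5′ to 3′ from GRCh38.p14: IFIT1 at chr10:89392373-89392622 (plus) and DDX60 at chr4:168318753-168319002 (minus). Capitals mark matches to the same pattern as above. MX1 held its 2 matches just after its start, and the OAS1 window held no match to this pattern. The bases before OAS1 hold gaaacgaaa, whose spacing is shorter than the pattern's. The lack of a match therefore does not mean that OAS1 lacks a response element.
IFIT1: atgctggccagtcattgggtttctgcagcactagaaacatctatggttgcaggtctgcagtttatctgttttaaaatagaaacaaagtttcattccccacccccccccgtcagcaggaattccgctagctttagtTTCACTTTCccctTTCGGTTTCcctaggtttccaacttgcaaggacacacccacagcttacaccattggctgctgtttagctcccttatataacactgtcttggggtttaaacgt
DDX60: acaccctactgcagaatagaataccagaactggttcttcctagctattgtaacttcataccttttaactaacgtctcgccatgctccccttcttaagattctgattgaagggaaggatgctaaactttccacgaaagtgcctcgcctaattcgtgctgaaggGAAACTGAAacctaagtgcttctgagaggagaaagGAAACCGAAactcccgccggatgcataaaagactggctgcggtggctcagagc

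Whether the marker genes passed under triptolide turned on the fit. IFI44L had 0.0809 CPM in the knockdown and 0.188 CPM in the control library of replicate 3, against 9.10, 16.1, 1.47 and 3.71 CPM (log2 difference -5.62 ± 0.92, edgeR adjusted p = 0.161). ISG15 had 2.67 and 0.6004 CPM against 11.98 to 77.0 CPM (-4.51 ± 1.05, edgeR adjusted p = 0.204), and IFI6 had 57.5 and 18.5 CPM against 163 to 584 CPM (-3.67 ± 0.61, edgeR adjusted p = 0.161). DESeq2 called all 3 at like differences (adjusted p of 1.54e-09 for IFI44L, 0.00378 for ISG15 and 3.37e-11 for IFI6), as did edgeR with no low-count filter, with the replicate block and with all 18 libraries in one fit (adjusted p between 2.14e-37 and 0.0369). The fit of all 18 takes part of its spread from the 12 libraries of the split. The replicate block takes the difference between replicates 1 and 2 out of the error. In the 12 libraries, dropping the filter took the SE of IFI44L from 0.89 to 0.28 at a like difference. These smaller p-values are therefore not stronger evidence. With 1 library left out, edgeR called IFI6 without control triptolide replicate 1 (adjusted p = 0.0106), and the adjusted p of the 3 genes was otherwise 0.0628 to 0.999. In each, both replicate 3 libraries lay below all 4 others, a pattern that 2480 of the 18108 genes showed (13.7%). ADAR differed by -0.14 ± 0.24 (edgeR adjusted p = 0.826), with 107 and 239 CPM against 83.0 and 124 CPM in the knockdown and 260 and 341 CPM in the control libraries, and its ranges overlapped.

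Of the 51 effectors tested under triptolide, 48 had a negative log2 difference, the median was -1.76, and for 42 both replicate 3 libraries lay below the 4 others. Of the 51, DESeq2 called 34 lower and the replicate block 42, against 5 in edgeR. XAF1 had no read in the 2 replicate 3 libraries and 124 in the others, and placing it at a floor of 3 counts left the median unchanged. Signalling genes had 5 of 11 below all others (median -0.42), and sensors 6 of 8 (median -1.04). Of the 489 genes lower in replicate 3 of untreated and DMSO cells, 457 were tested and 441 (96.5%) had the same sign. Over all 18108 genes tested under triptolide, 55.4% had a negative difference. Of these 457, 275 (60.2%) lay below all 4 other libraries, against 13.7% of all genes tested. Of the 429 higher genes, 418 were tested and 393 (94%) had the same sign. Of these 418, 300 (71.8%) lay above all 4 others, a pattern that 2704 of all genes tested showed (14.9%). Libraries of 1 number varied together, so genes picked by number are likely to keep their sign. These shares are therefore no independent support. The mitosis list lay above all others for 16 of its 18 genes, with a median of 0.95 and none called in edgeR (9 by DESeq2, 16 with the replicate block). No gene was called for a difference between the triptolide and the other replicate 3 gaps (0%, 1102 genes at an unadjusted p under 0.05 in edgeR, 42 called by DESeq2).

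**Figure D5:**
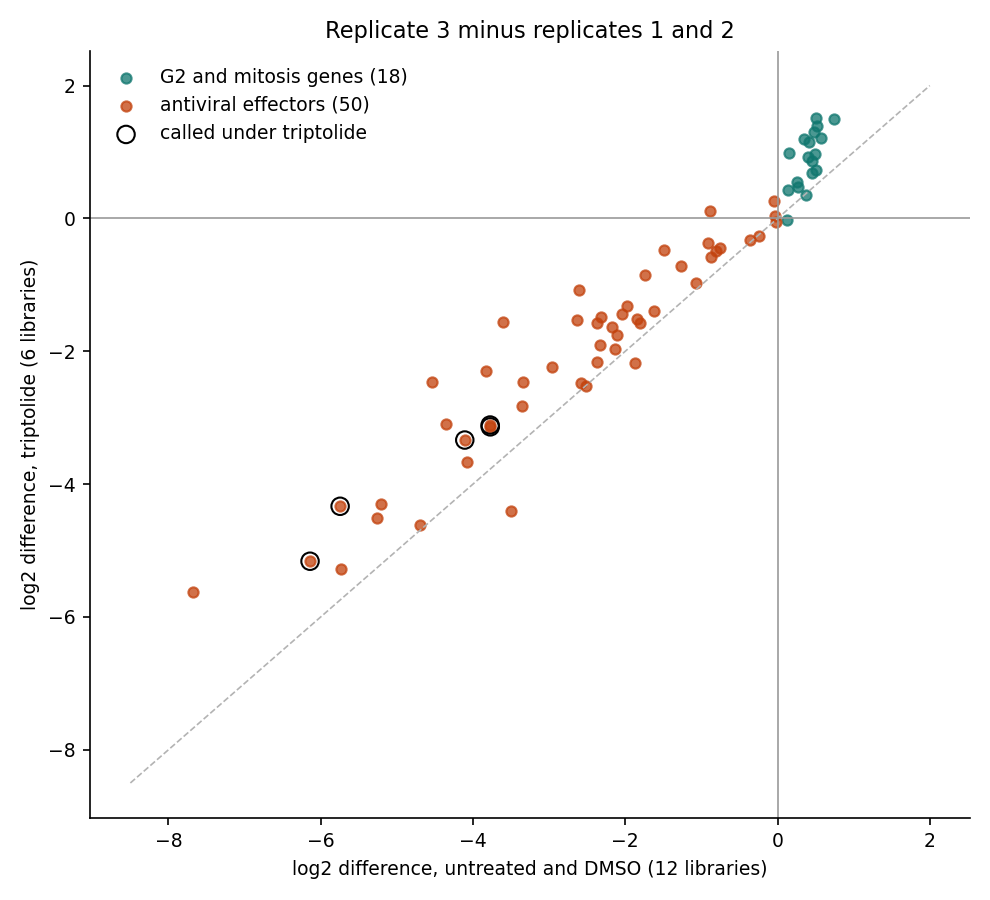
Log2 difference of replicate 3 minus replicates 1 and 2 in untreated and DMSO cells (12 libraries, horizontal) and under triptolide (6 libraries, vertical) for 50 antiviral effectors with reads in both and 18 G2 and mitosis genes; rings mark the 5 genes called under triptolide and the dashed line marks equal values. Most effectors lie at lower left and above the dashed line, with smaller gaps under triptolide, and the mitosis genes lie at upper right.

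The make-up of the libraries differed beside these results. Gene counts ran from 27317278 to 32428684 in replicate 3 and from 26709657 to 32816925 in the other untreated and DMSO libraries. Long noncoding RNA took 1.09 to 1.40% of gene counts in replicate 3 and 1.45 to 2.06% in the others, and small RNA 0.273 to 0.372% against 0.443 to 1.18%, with no overlap, also under triptolide. Of the genes called lower, 52 (10.6%) were long noncoding, and of those called higher, 8 (1.86%). The share of long noncoding genes among all genes tested is not given here, so these counts show neither an excess nor a lack. Luminal epithelial markers were at 1 CPM or more on average for 14 of 14, with summed levels of 6836.9 to 7605.2 CPM against 5213.5 to 6713.3 CPM, so the libraries fit the label of a luminal line. Leukocyte markers reached 1 CPM for 1 of 13, with CD3D at 0 and sums of 4.81 to 5.68 CPM against 6.26 to 9.77 CPM. Plasmacytoid dendritic cell markers reached it for 2 of 5 (12.5 to 17.7 against 13.7 to 22.7 CPM), stromal markers for 2 of 10, with LUM at 0 (12.6 to 16.8 against 13.4 to 28.6 CPM), endothelial markers for 1 of 6 (1.55 to 2.15 against 2.67 to 4.78 CPM) and basal-like markers for 7 of 11 (113 to 142 against 93.1 to 167 CPM). The part of library make-up or of these markers in the replicate 3 differences was not tested.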

How the data were processed

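The deposited files hold raw read counts per gene, 1 library per file. Per the submitters' processing notes, the authors used STAR 2.4.2a, HTSeq 0.6.1, DESeq2 1.4.5 and R 3.1 with hg19; whether HTSeq counted by strand is not given in the sources used here, so reads of overlapping and antisense genes may be mixed. Of 60252 gene IDs, 58822 (97.6%) matched GENCODE release 44 mapped to GRCh37, and reads given to no gene, 24.9 to 35.4% of each library's tallied reads, were left out. Gene counts were 26709657 to 35674502 per library, so a share of counts has a 95% Wilson interval of at most 0.019 percentage points on either side, which covers counting error alone. Libraries of the same group differed by more than sampling noise (chi-square per degree of freedom at least 62.0).

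Counts were scaled by TMM and fitted in edgeR 4.0.16 (R 4.3.3, quasi-likelihood test) after its low-count filter (minimum count 10), two-sided, with Benjamini-Hochberg adjustment over all genes and 7 residual degrees of freedom for the 12 libraries and 3 for triptolide. Levels are TMM-scaled CPM and SE is the log2 difference over the square root of F. DESeq2 1.42.0, another scaling, no filter, single treatments or lines and leaving out each library were alternatives. The script was tested on simulated data. Deviations from group means correlated at 0.586 to 0.855 for libraries of 1 replicate number (18 pairs, across genes) and at -0.67 to -0.079 otherwise (36 pairs), and 12 of 12 libraries were closest to their own number, so the numbers pair libraries and the fit with replicates 1 and 2 as separate levels is the replicate block. P-values measure the spread between these libraries, since nothing says how the cultures were separated. They treat libraries of 1 number as separate and do not measure the spread between replicate numbers, where replicate 3 is 1 against 2. The replicate block takes the difference between replicates 1 and 2 out of the error, so its larger counts of calls are not stronger evidence.

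Genes were named by a rule: IFI44L, ISG15, IFI6 and ADAR, the 10 largest differences in each direction that held in all 4 groups at 1 CPM or more, up to 3 members of each list, and the genes called under triptolide. Members named for their role in the pathway, or to complete a count, were chosen after their values were seen. The libraries, gene lists and rule were chosen with earlier results of these data known. Promoter sequences are RefSeq's on GRCh38.p14; OAS2 has no entry. Results for some genes that the rule names are not reported here.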

Additional observations from a re-analysis of the deposited data

Results flagged for a closer look

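Of 132 groups examined (66 genes, replicate 3 with 4 libraries and replicates 1 and 2 with 8), 2 held a library far from the rest, where chance flags about 1 in 20. IRF7 had 9.06 CPM in control untreated replicate 2, against 14.3 to 15.8 CPM in the 7 other libraries of replicates 1 and 2. TRAF1 had 0.829 CPM in knockdown DMSO replicate 3, against 1.30 to 1.37 CPM in the 3 other libraries of replicate 3. Both stayed on the side of their own replicate group.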

How the results depend on the processing

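Of the 918 calls of the 12-library comparison, the count was 870 with RLE size factors and 877 without mitochondrial ribosomal RNA, but 2067 with DESeq2, 1639 with no low-count filter, 6 in untreated cells only, 24 in DMSO only, 64 in the knockdown line only and 2 in the control line only, where fewer libraries were fitted. With the replicate block it was 5376, which included all 918. Leaving out 1 library gave 122 to 1076. The 5 calls under triptolide became 434 with DESeq2, 685 with no filter, 4318 with the replicate block, 472 in one fit of all 18 libraries, and 0 to 14 with 1 library left out. The line interaction had 6 calls in DESeq2, 25 with no filter and 13 with the replicate block, and 0 with any library left out. The triptolide interaction had 42 in DESeq2, 37 with no filter and 0 to 3 with 1 library left out, and the DMSO interaction had 0 under every alternative run. Pair counts moved by less than 1.5 times with RLE size factors or no filter. Of the gene and list values recomputed, 2177 of 2238 in the 12 libraries stayed within the spread of the difference over the 4 groups (for list medians, within 0.5 on the log2 scale) and 61 did not. Under triptolide 104 of 132 kept their side of the threshold (for list medians, stayed within 0.5 on the log2 scale). No gene called in the main fit of the 12 or of the triptolide libraries reversed its direction. Reversal was not checked for list medians or for genes not called there. The cause of these changes was not tested. Genes under about 10 reads per library, the interferons among them, are limited by depth.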

Other observations

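Outside the gene lists, 24 protein-coding genes were lower in replicate 3 by over 4-fold and called, named here after their values were seen. PARP10, an ADP-ribosyltransferase, averaged 4.21 CPM in replicate 3 and 41.6 CPM in replicates 1 and 2 (log2 difference -3.30 ± 0.16), and BATF2, a transcription factor, averaged 0.5025 and 5.01 CPM (-3.29 ± 0.23). TNFSF10, the death ligand TRAIL, averaged 2.78 and 14.4 CPM (-2.38 ± 0.57), and APOL1, an apolipoprotein known to kill trypanosomes, averaged 0.458 and 3.25 CPM (-2.82 ± 0.30). CASP1, the inflammasome protease, averaged 0.0854 and 0.483 CPM (-2.48 ± 0.53). LGALS9, a galectin, averaged 0.704 and 4.19 CPM (-2.69 ± 0.27). TRANK1 averaged 8.30 and 35.8 CPM (-2.14 ± 0.34).

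The 13 mRNAs of the mitochondrial genome had a median log2 difference of 0.54 in untreated and DMSO cells and 0.96 under triptolide, with none called in either. They took 0.752 to 1.43% of gene counts in replicate 3 and 0.690 to 1.42% in the other untreated and DMSO libraries, and under triptolide 1.66 and 2.21% against 0.826 to 1.35%.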
